A study of Homo sapiens with 11 samples.

Results

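The 51 genes described here encode the machinery that copies DNA and factors tied to it. Among them are the proteins that license replication origins, the helicase and its activators, and the polymerases with their clamp and clamp loader. Others are the enzymes that finish the lagging strand and those that make deoxynucleotides. The rest are fork protection and S-phase factors, and the transcription factors E2F1 and E2F2. The 51 genes were chosen by gene function as a list of symbols, with earlier results of these data known. Counts of them set beside all tested genes are thus a description. Each symbol was matched to its Ensembl ID in the deposited count table. All 51 were found, with a single ID each, among the 61464 features of the table, and all 51 were among the 17963 genes with enough counts to be tested. The cells were HCT116, an epithelial line long established from a human colorectal carcinoma, with a ras mutation according to the labels. They were kept for 48 h with the solvent DMSO as the control (3 libraries) or with an extract of Ganoderma triterpenoids, GTEA1 (4 libraries) or GTEA7 (4 libraries). Both extracts are known here by code name alone, and the labels give no dose for either, so the extracts are compared as applied. All 11 libraries carry the same batch label, and nothing says that they came from separate cultures. A p-value here thus speaks only of the spread between these samples. The series set out, by its title, to study stemness and migration under such extracts.

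Replication is set up in steps that the list follows. In G1 the origin recognition complex, CDC6 and CDT1 load the ring-shaped MCM helicase onto DNA, and geminin holds CDT1 back once S phase has begun. CDC45 and the GINS complex then turn the loaded ring into an active helicase, and primase, the polymerases, the sliding clamp and a supply of deoxynucleotides carry the fork forward. Many of these genes are textbook targets of the E2F transcription factors, which RB restrains until cells commit to S phase, and their mRNA is abundant in cycling tumour cells.

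With GTEA1, 48 of the 51 replication genes were lower than in DMSO, beside 36.2% of all tested genes. The 3 that were higher, beside 35.6% of all tested genes, were ORC2, ORC3 and RFC1. With GTEA7, 2 were lower, POLD1 and POLE, beside 10.4% of all tested genes. Another 5 were higher, ORC3, ORC6, RFC3, RPA2 and SLBP, beside 12% of all tested genes, and 44 did not pass the test. The summed level of the 51 genes, in CPM (counts scaled to a common library size, with TMM factors), was 3854, 4009 and 3997 in the DMSO libraries. It was 1742, 1611, 1635 and 1545 in the GTEA1 libraries and 4038, 4028, 4135 and 3713 in the GTEA7 libraries. The GTEA1 sum was thus 41.3% of the DMSO sum, and every GTEA1 library lay below every other library, whereas the ranges of GTEA7 and DMSO overlapped. In these bulk samples, fewer cells in S phase and less RNA per cell cannot be told apart.

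A gene passed the test at an adjusted p under 0.05 (edgeR quasi-likelihood test over all tested genes, Benjamini-Hochberg). Much of the transcriptome passed with GTEA1: 71.8% of all tested genes, 36.2% lower and 35.6% higher. Scaled by library size alone, the same split was 8179 genes lower and 4828 higher, against 6505 and 6390. The median log2 fold change of the 51 genes against DMSO was -1.59, a 3.01-fold lower level, beside -0.01 over all tested genes. Of the 51, 37 were lower by at least 2-fold, and 12.4% of all tested genes passed the test with such a fall. The GTEA1 and DMSO libraries did not overlap for any of the 51 genes, beside 68.7% of all tested genes.

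The falls differed widely in size. Between 4-fold and 22.5-fold lower were 17 genes: FAM111B, GINS2, FEN1, MCM2, TK1, MCM4, MCM10, CLSPN, RRM2, TYMS, E2F1, PRIM1, E2F2, GINS1, CDC45, GINS4 and MCM3. A further 20 genes were lower by 2-fold to 4-fold. The 11 that fell by less than 2-fold were POLD1, RFC2, POLD3, SLBP, RPA1, POLA2, RFC4, ORC5, RPA2, CDC6 and POLD2. Helicase activation and deoxynucleotide synthesis had the lowest medians of the role groups with more than 2 genes, -2.08 and -2.29, and the origin recognition complex the highest, -0.40.

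**Figure D1:**
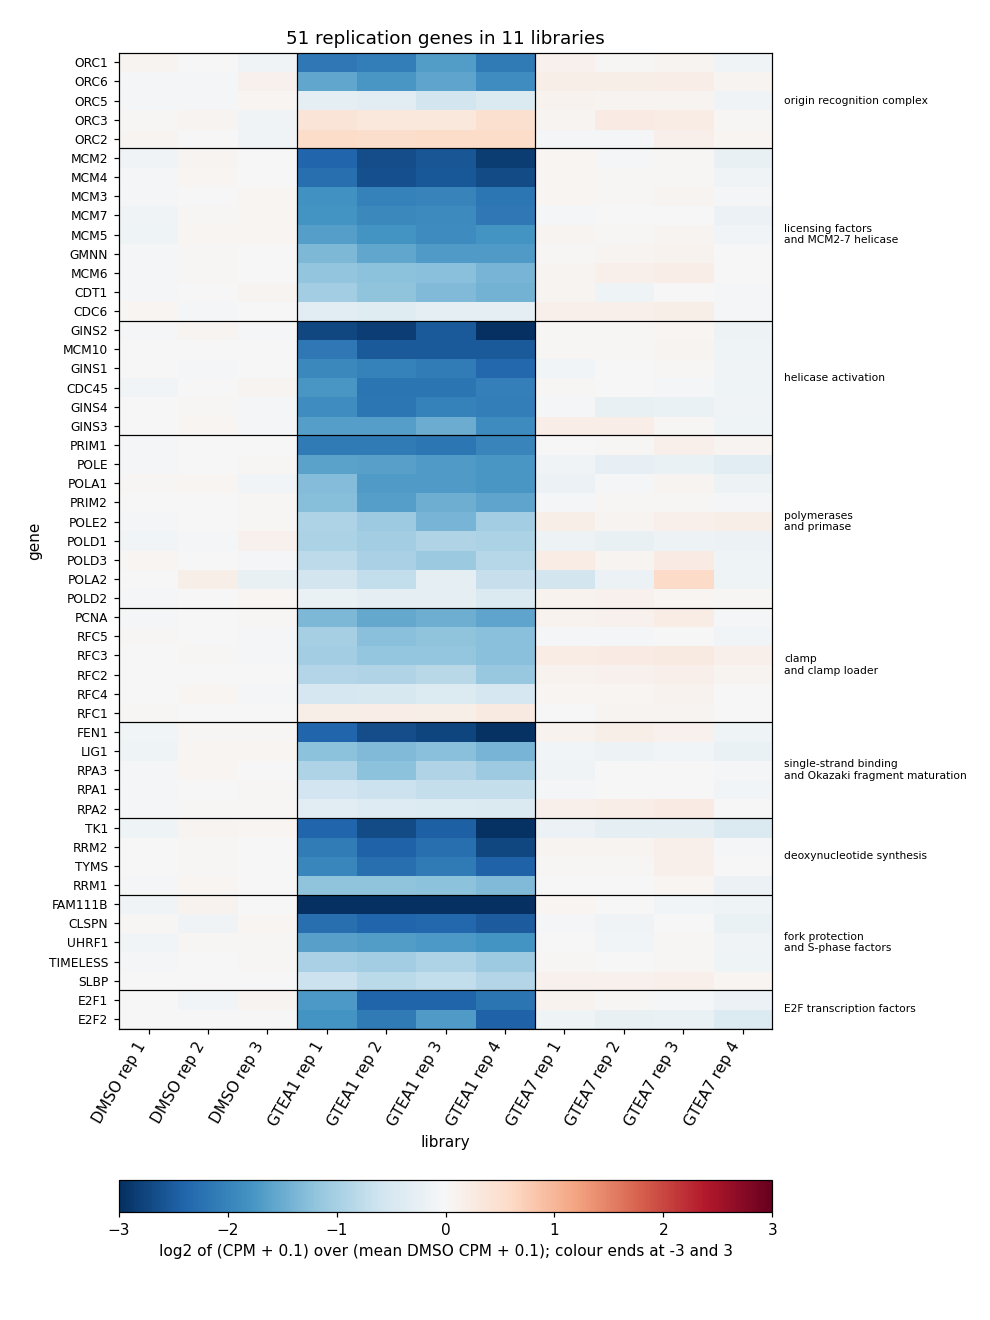
Level of each of the 51 replication genes (vertical axis, grouped by role and ordered by its change with GTEA1) in each of the 11 libraries (horizontal axis), as log2 of CPM plus 0.1 over the DMSO mean plus 0.1; blue is lower and red is higher than DMSO, and the colour ends at -3 and 3. The 4 GTEA1 columns are blue for 48 genes and red for ORC2, ORC3 and RFC1, while the GTEA7 columns stay near the DMSO level.

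Library totals spanned 13866350 to 17431515 counts (DMSO), 13742326 to 16433111 (GTEA1) and 14955685 to 19304211 (GTEA7). Markers of colon epithelium summed to 2234 to 2384 CPM in DMSO, 2717 to 2848 in GTEA1 and 2231 to 2328 in GTEA7, although VIL1 and KRT20 had only 28 and 348 counts over all libraries. Its members went both ways with GTEA1: KRT19 (log2 fold change 1.18), EPCAM (0.62) and CDH1 (0.16) were higher, and KRT8 (-0.26), KRT18 (-0.27), KRT20 (-1.76) and CDX2 (-0.57) lower. The 6 leukocyte markers summed to at most 2.53 CPM in any library, with CD3E at 0 counts, and the 4 endothelial markers to at most 4.27 CPM. The 6 fibroblast markers summed to 53.9 to 55.4 CPM in DMSO, 38.3 to 46.4 in GTEA1 and 36.8 to 46.0 in GTEA7, nearly all from COL1A1, with DCN and LUM at 4 and 2 counts.

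E2F1 and E2F2 are activating E2F factors that switch on S-phase genes. E2F1 (ENSG00000101412) stood at 22.03, 21.2 and 23.6 CPM in DMSO, at 6.67, 4.11, 4.12 and 4.82 CPM with GTEA1 and at 23.9, 22.9, 21.9 and 19.6 CPM with GTEA7. Its fall with GTEA1 was 4.53-fold (log2 fold change -2.18 ± 0.10 (SE), adjusted p = 1.7e-23). E2F2 (ENSG00000007968) was much scarcer, at 3.23, 3.18 and 3.17 CPM in DMSO, at 0.844, 0.661, 0.917 and 0.514 CPM with GTEA1 and at 2.94, 2.71, 2.77 and 2.36 CPM with GTEA7, and its log2 fold change with GTEA1 was -2.12 ± 0.22 (adjusted p = 4.3e-12). All 4 GTEA1 libraries lay under all others for both genes. GTEA7 left neither past the test, although its 4 libraries all lay under the 3 DMSO libraries for E2F2.

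Because many replication genes are textbook targets of E2F factors, the promoters of the 51 genes were searched for the E2F motif letters TTTCCCGC and TTTGGCGC on both strands. Promoters were the 300 bases from 250 before to 50 after the transcription start in RefSeq (GRCh38.p14), which were at hand for 44 of the genes. A match stood in 21 of these 44 genes (47.7%), beside 750 of all 27305 genes with such a promoter (2.75%), or 797 of 35116 promoters (2.27%). Among genes that fell by at least 2-fold with GTEA1 it was in 19 of 32 (59.4%), and among the other members in 2 of 12 (16.7%), CDC6 and ORC3. The letters CCAAT, a common promoter element that shares the run CCAA with TTTGGCGC read on the other strand, stood in 28 of the 44 genes (63.6%) and in 39.7% of all genes. Only the exact letters were searched, so close variants of the E2F motif are not marked or counted. The letters are a description of the promoters and do not show binding by any factor.

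The windows below are shown because they hold the match in genes that fell by 4-fold or more, in genes with middling falls, and in the 2 members with a match that fell least or rose. Each has 120 bases on the gene's strand, 5′ to 3′, and capitals mark the E2F match. GCGGGAAA is TTTCCCGC read on the opposite strand. All end 20 bases after the start site except that of MCM6, which lies from 170 to 51 bases before it.
E2F1: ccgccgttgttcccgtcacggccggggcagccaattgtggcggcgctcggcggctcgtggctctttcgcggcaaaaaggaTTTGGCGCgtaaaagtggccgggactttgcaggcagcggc
E2F2: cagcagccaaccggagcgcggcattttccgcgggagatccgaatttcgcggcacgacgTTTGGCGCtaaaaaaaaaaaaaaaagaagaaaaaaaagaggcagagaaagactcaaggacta
GINS2: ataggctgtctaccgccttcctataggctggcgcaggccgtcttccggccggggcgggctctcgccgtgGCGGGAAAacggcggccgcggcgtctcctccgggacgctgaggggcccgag
CLSPN: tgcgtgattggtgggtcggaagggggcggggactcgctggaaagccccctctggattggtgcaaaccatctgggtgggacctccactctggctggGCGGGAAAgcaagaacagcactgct
TYMS: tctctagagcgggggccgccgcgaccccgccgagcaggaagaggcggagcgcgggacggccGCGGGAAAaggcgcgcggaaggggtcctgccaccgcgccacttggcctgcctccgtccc
PCNA: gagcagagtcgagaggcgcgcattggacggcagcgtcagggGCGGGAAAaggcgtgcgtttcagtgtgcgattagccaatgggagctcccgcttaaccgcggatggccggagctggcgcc
MCM6: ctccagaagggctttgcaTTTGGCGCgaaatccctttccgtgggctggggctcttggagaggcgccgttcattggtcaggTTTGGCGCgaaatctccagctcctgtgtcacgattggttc
CDC6: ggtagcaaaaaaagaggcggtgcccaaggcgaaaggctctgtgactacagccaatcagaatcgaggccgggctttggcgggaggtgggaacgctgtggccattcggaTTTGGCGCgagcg
ORC3: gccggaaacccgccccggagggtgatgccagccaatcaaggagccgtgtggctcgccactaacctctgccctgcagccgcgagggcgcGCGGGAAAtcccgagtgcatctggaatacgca

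In GRCh38.p14 these windows were chr20:33686366-33686485 (E2F1, minus strand), chr1:23531214-23531333 (E2F2, minus), chr16:85688935-85689054 (GINS2, minus), chr1:35769959-35770078 (CLSPN, minus) and chr18:657553-657672 (TYMS, plus). The others were chr20:5126603-5126722 (PCNA, minus), chr2:135876494-135876613 (MCM6, minus), chr17:40287779-40287898 (CDC6, plus) and chr6:87590035-87590154 (ORC3, plus). In E2F1, E2F2, GINS2, CLSPN, TYMS and PCNA the match began 20, 42, 31, 5, 39 and 59 bases before the start site. MCM6 held the motif at 152 and at 90 bases before the start, the only member with more than a single match. In CDC6 it began 8 bases after the start and in ORC3 12 bases before it. E2F1 and CDC6, with the same letters TTTGGCGC near the start, fell by 4.53-fold and 1.25-fold.

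The median log2 fold change with GTEA1 was -1.67 over the 21 genes with a match, from -2.80 in GINS2 to 0.38 in ORC3. It was -1.18 over the 23 genes without one, from -2.69 in FEN1 to 0.54 in ORC2. The ranges therefore overlapped almost wholly, and several of the largest falls, in FEN1, MCM2, TK1, MCM10 and RRM2, came in genes whose 300 bases lack these letters. FAM111B, GINS4, MCM4, MCM5, POLD3, RPA2 and RPA3 were not in the promoter table.

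**Figure D2:**
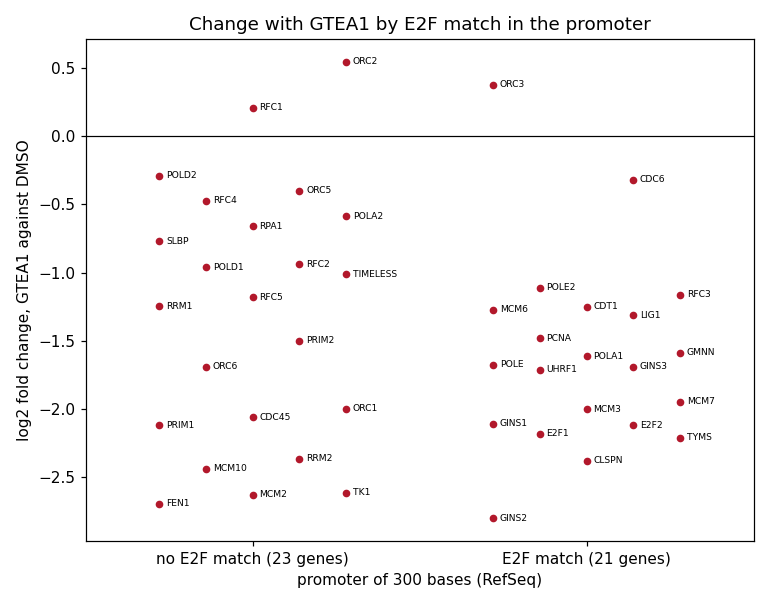
Log2 fold change of GTEA1 against DMSO (vertical axis) of the 44 replication genes with a RefSeq promoter of 300 bases, split on the horizontal axis into 23 genes without and 21 genes with an E2F match; each point is a gene, and its place within a column has no meaning. Both columns run from about -2.8 or -2.7 to above 0, with medians of -1.67 with and -1.18 without a match.

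The origin recognition complex marks the sites where replication can begin, and its subunits did not move together with GTEA1. ORC1 (ENSG00000085840), the subunit whose supply is known to rise and fall with the cell cycle, stood at 33.2, 31.8 and 29.3 CPM in DMSO, at 6.98, 7.42, 9.82 and 7.19 CPM with GTEA1 and at 34.5, 32.1, 33.4 and 29.2 CPM with GTEA7. ORC6 (ENSG00000091651), the smallest subunit, stood at 31.5, 31.4 and 35.95 CPM in DMSO, at 11.2, 9.77, 10.9 and 8.93 CPM with GTEA1 and at 37.2, 37.5, 37.9 and 34.9 CPM with GTEA7. Both fell beyond any overlap, ORC1 by 3.99-fold (log2 fold change -1.997 ± 0.085, adjusted p = 5.1e-26) and ORC6 by 3.22-fold (-1.69 ± 0.07, adjusted p = 4.7e-26). ORC5 (ENSG00000164815), a core subunit, fell less, from 30.1, 30.2 and 31.9 CPM in DMSO to 25.2, 24.5, 20.9 and 22.8 CPM with GTEA1, and was at 33.3, 32.6, 32.6 and 28.3 CPM with GTEA7.

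ORC2 and ORC3, core subunits that bind each other, went up. ORC2 (ENSG00000115942) stood at 57.1, 55.2 and 50.9 CPM in DMSO, at 80.01, 78.1, 80.00 and 79.96 CPM with GTEA1 and at 52.2, 52.5, 60.97 and 56.3 CPM with GTEA7. ORC3 (ENSG00000135336) stood at 40.2, 41.2 and 36.2 CPM in DMSO, at 51.4, 48.9, 49.2 and 54.6 CPM with GTEA1 and at 41.8, 46.8, 45.8 and 40.4 CPM with GTEA7. With GTEA1 the rise was 1.46-fold for ORC2 (0.54 ± 0.05 on the log2 scale, adjusted p = 2.8e-14) and 1.30-fold for ORC3 (0.38 ± 0.06, adjusted p = 5.6e-08). Scaled by library size alone, ORC2 and ORC3 had log2 fold changes of 0.39 (adjusted p = 7.9e-10) and 0.22 (adjusted p = 0.00065). The ratio of ORC2 to ORC1 CPM went from 1.72 to 1.74 in the DMSO libraries to 8.15 to 11.5 in the GTEA1 libraries, and was 1.51 to 1.93 with GTEA7.

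CDC6, CDT1 and geminin govern how often an origin is loaded. CDC6 (ENSG00000094804), the ATPase that brings the helicase to the origin recognition complex, stood at 101, 93.98 and 98.6 CPM in DMSO, at 77.9, 75.7, 80.1 and 79.8 CPM with GTEA1 and at 108, 109, 111 and 95.04 CPM with GTEA7. CDT1 (ENSG00000167513), its partner in loading, stood at 34.7, 35.7 and 38.2 CPM in DMSO, at 17.6, 15.6, 14.3 and 13.4 CPM with GTEA1 and at 38.00, 33.1, 35.9 and 34.6 CPM with GTEA7. GMNN (ENSG00000112312), which encodes the CDT1 inhibitor geminin, stood at 37.4, 39.4 and 38.2 CPM in DMSO, at 14.9, 12.9, 11.7 and 11.8 CPM with GTEA1 and at 39.3, 40.6, 41.3 and 38.2 CPM with GTEA7. The GTEA1 libraries lay below all others for each of the 3 genes, but the fall was 1.25-fold for CDC6 (log2 fold change -0.32 ± 0.04, adjusted p = 1.3e-08), 2.38-fold for CDT1 (-1.25 ± 0.07, adjusted p = 9e-22) and 3.01-fold for GMNN (-1.59 ± 0.07, adjusted p = 1.2e-26). The CPM ratio of CDT1 to GMNN was 0.907 to 1.00 in DMSO, 1.14 to 1.22 in GTEA1 and 0.815 to 0.966 in GTEA7. These ratios and those of other gene pairs below were picked after the values were seen.

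The MCM2 to MCM7 proteins form the ring of the replicative helicase in equal number. All 6 genes fell with GTEA1, beside 36.2% of all tested genes. MCM2 (ENSG00000073111) stood at 79.2, 89.4 and 85.4 CPM in DMSO, at 16.1, 13.2, 14.2 and 11.6 CPM with GTEA1 and at 88.6, 83.3, 86.6 and 72.3 CPM with GTEA7. MCM4 (ENSG00000104738) stood at 241, 255 and 244 CPM in DMSO, at 51.7, 39.7, 42.03 and 38.3 CPM with GTEA1 and at 255, 254, 253 and 229 CPM with GTEA7. They fell to 16.2% and 17.4% of the control level, by 6.17-fold (log2 fold change -2.63 ± 0.09, adjusted p = 8e-15) and 5.76-fold (-2.53 ± 0.08, adjusted p = 2.2e-12). MCM3 (ENSG00000112118) stood at 232, 239.8 and 250.1 CPM in DMSO, at 68.3, 58.8, 59.8 and 53.8 CPM with GTEA1 and at 252, 247, 256 and 232 CPM with GTEA7. MCM7 (ENSG00000166508) stood at 225, 249 and 251 CPM in DMSO, at 69.7, 63.6, 64.2 and 54.4 CPM with GTEA1 and at 237, 239, 244 and 214 CPM with GTEA7. Their falls were close in size, 4.00-fold and 3.85-fold. MCM5 (ENSG00000100297) stood at 71.5, 81.02 and 81.1 CPM in DMSO, at 24.5, 22.3, 20.9 and 22.5 CPM with GTEA1 and at 82.6, 79.2, 82.02 and 73.96 CPM with GTEA7. MCM6 (ENSG00000076003) stood at 160.2, 166 and 163 CPM in DMSO, at 71.1, 68.9, 68.3 and 61.7 CPM with GTEA1 and at 173, 180.4, 186 and 161 CPM with GTEA7, and its fall of 2.42-fold (-1.27 ± 0.04, adjusted p = 3.4e-29) was the smallest of the 6.

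Per length of exon, as CPM per kilobase, the order of the 6 MCM genes in DMSO was MCM3 (65.9), MCM7 (55.2), MCM6 (39.6), MCM4 (35.3), MCM2 (17.3) and MCM5 (10.6). With GTEA1 it was MCM3 (16.5), MCM6 (16.4), MCM7 (14.4), MCM4 (6.16), MCM5 (3.07) and MCM2 (2.81). MCM6 thus moved from well under MCM3 to level with it, and MCM2 from above MCM5 to just under it. The lengths join all annotated exons of a gene in GENCODE v29, 7338 bases for MCM5 and 4902 for MCM2. They can exceed the length of any single transcript, so the order between genes depends on them. That annotation may also not be the one behind the counts. In plain CPM, mean MCM2 was likewise above MCM5 in DMSO (84.7 and 77.9) and below it with GTEA1 (13.8 and 22.5). AP4M1, on the opposite strand, shares 8.94% of the exon bases of MCM7, and the strand setting of the counting is not given in the sources used here.

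CDC45, the 4 GINS subunits and MCM10 turn the loaded ring into a working helicase. All 6 genes fell with GTEA1 by 3.22-fold or more, beside 12.4% of all tested genes with a fall of at least 2-fold. GINS2 (ENSG00000131153) stood at 35.4, 38.3 and 35.5 CPM in DMSO, at 5.37, 5.07, 6.28 and 4.24 CPM with GTEA1 and at 37.1, 37.1, 37.9 and 32.6 CPM with GTEA7. MCM10 (ENSG00000065328), which is needed to activate the loaded helicase, stood at 50.7, 51.1 and 49.96 CPM in DMSO, at 11.4, 8.67, 8.77 and 8.67 CPM with GTEA1 and at 51.8, 51.5, 53.6 and 46.6 CPM with GTEA7. Their falls were 6.95-fold (log2 fold change -2.80 ± 0.09, adjusted p = 9.2e-33) and 5.42-fold (-2.44 ± 0.07, adjusted p = 1e-33). GINS1 (ENSG00000101003) stood at 56.6, 54.7 and 56.1 CPM in DMSO, at 14.6, 13.7, 13.03 and 10.8 CPM with GTEA1 and at 53.1, 56.6, 56.8 and 51.9 CPM with GTEA7. GINS4 (ENSG00000147536) stood at 22.9, 23.9 and 22.6 CPM in DMSO, at 6.29, 5.07, 5.56 and 5.46 CPM with GTEA1 and at 22.4, 19.96, 20.05 and 21.6 CPM with GTEA7. These 2 subunits of the complex fell by 4.31-fold and 4.15-fold. CDC45 (ENSG00000093009) stood at 19.97, 21.3 and 22.4 CPM in DMSO, at 6.21, 4.55, 4.58 and 5.07 CPM with GTEA1 and at 21.6, 21.3, 20.5 and 19.4 CPM with GTEA7. GINS3 (ENSG00000181938), the least abundant of the 6 in CPM per kilobase in DMSO (2.47), stood at 12.6, 13.2 and 12.1 CPM in DMSO, at 3.91, 3.97, 4.45 and 3.34 CPM with GTEA1 and at 14.5, 14.5, 12.97 and 11.6 CPM with GTEA7. The summed CPM of the 6 genes with GTEA1 was 21.2% of that in DMSO, and with GTEA7 98.5%.

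DNA polymerase alpha and primase start each new strand, polymerase epsilon extends the leading and polymerase delta the lagging strand. All 9 genes of this group were lower with GTEA1, beside 36.2% of all tested genes, over a wide range of sizes. PRIM1 (ENSG00000198056), the catalytic subunit of primase, stood at 18.3, 18.7 and 18.9 CPM in DMSO, at 4.22, 4.19, 4.06 and 4.62 CPM with GTEA1 and at 18.5, 19.2, 20.8 and 19.6 CPM with GTEA7. PRIM2 (ENSG00000146143), its large subunit, stood at 46.99, 47.4 and 48.7 CPM in DMSO, at 19.5, 15.1, 17.3 and 15.7 CPM with GTEA1 and at 46.2, 48.5, 48.6 and 46.2 CPM with GTEA7. Primase thus fell by 4.34-fold (log2 fold change -2.12 ± 0.10, adjusted p = 1e-25) and 2.82-fold (-1.50 ± 0.06, adjusted p = 4e-27) in its subunits. POLA1 (ENSG00000101868), the catalytic subunit of polymerase alpha, stood at 62.5, 63.2 and 57.3 CPM in DMSO, at 24.8, 18.7, 18.8 and 18.1 CPM with GTEA1 and at 54.3, 58.9, 64.6 and 55.2 CPM with GTEA7, a fall of 3.06-fold with GTEA1 (-1.61 ± 0.08, adjusted p = 7.9e-13). POLA2 (ENSG00000014138), its B subunit, was low throughout, at 2.76, 3.13 and 2.35 CPM in DMSO, at 1.84, 1.62, 2.23 and 1.67 CPM with GTEA1 and at 1.84, 2.41, 4.13 and 2.50 CPM with GTEA7. The POLA2 call (log2 fold change -0.59 ± 0.22, adjusted p = 0.014) rests on 432 counts over all libraries and was lost without DMSO replicate 2 (-0.48, adjusted p = 0.089). Another annotated gene on the same strand shares 35.1% of its exon bases.

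POLE (ENSG00000177084), the catalytic subunit of polymerase epsilon, stood at 179, 184 and 186 CPM in DMSO, at 59.6, 58.9, 56.4 and 54.8 CPM with GTEA1 and at 169, 153, 159 and 147 CPM with GTEA7. POLE2 (ENSG00000100479), the second subunit, stood at 19.1, 19.6 and 20.2 CPM in DMSO, at 10.4, 9.18, 7.46 and 9.51 CPM with GTEA1 and at 22.2, 20.7, 21.99 and 22.3 CPM with GTEA7. With GTEA1 they fell by 3.19-fold (log2 fold change -1.67 ± 0.04, adjusted p = 4.4e-36) and 2.16-fold (-1.11 ± 0.08, adjusted p = 1.1e-16). The subunits of polymerase delta fell less. POLD1 (ENSG00000062822), the catalytic subunit, stood at 32.5, 33.1 and 37.5 CPM in DMSO, at 17.9, 16.6, 18.3 and 17.7 CPM with GTEA1 and at 30.9, 29.4, 30.9 and 30.3 CPM with GTEA7. POLD3 (ENSG00000077514), an accessory subunit, stood at 24.3, 23.1 and 22.8 CPM in DMSO, at 13.6, 11.9, 10.8 and 12.97 CPM with GTEA1 and at 27.2, 24.98, 27.6 and 21.4 CPM with GTEA7. POLD2 (ENSG00000106628), the subunit that joins the others, stood at 78.4, 82.1 and 84.4 CPM in DMSO, at 71.1, 67.6, 67.9 and 60.9 CPM with GTEA1 and at 87.4, 89.97, 84.4 and 83.1 CPM with GTEA7. The falls of the polymerase delta genes were 1.94-fold, 1.91-fold and 1.22-fold, and that of POLD2 (log2 fold change -0.29 ± 0.05, adjusted p = 2.2e-07) was the smallest fall among the 51 genes.

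PCNA is the ring that tethers polymerases to DNA, and the 5-subunit loader RFC opens and closes it. PCNA (ENSG00000132646) stood at 155, 163 and 166 CPM in DMSO, at 63.6, 55.8, 58.1 and 53.5 CPM with GTEA1 and at 175, 177, 189 and 157 CPM with GTEA7. It fell by 2.79-fold with GTEA1 (log2 fold change -1.48 ± 0.05, adjusted p = 4.2e-19). The small loader subunits, which are shared with alternative clamp loaders, also fell. RFC5 (ENSG00000111445) stood at 61.7, 61.2 and 59.00 CPM in DMSO, at 30.5, 25.2, 26.3 and 25.4 CPM with GTEA1 and at 58.04, 58.8, 60.5 and 57.7 CPM with GTEA7. RFC3 (ENSG00000133119) stood at 42.2, 42.7 and 40.9 CPM in DMSO, at 20.2, 18.7, 18.9 and 17.5 CPM with GTEA1 and at 49.00, 50.2, 50.6 and 46.6 CPM with GTEA7. Both fell by just over 2-fold, 2.27-fold and 2.24-fold. RFC2 (ENSG00000049541) stood at 45.6, 45.3 and 44.99 CPM in DMSO, at 24.7, 24.2, 25.3 and 20.4 CPM with GTEA1 and at 49.1, 49.2, 50.7 and 47.9 CPM with GTEA7. RFC4 (ENSG00000163918) stood at 48.5, 50.04 and 46.4 CPM in DMSO, at 34.1, 34.5, 36.5 and 34.2 CPM with GTEA1 and at 50.6, 50.3, 51.95 and 48.3 CPM with GTEA7. RFC4 fell by 1.39-fold (log2 fold change -0.47 ± 0.05, adjusted p = 1.4e-11), the smallest change of the small subunits.

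The large subunit went the other way. RFC1 (ENSG00000035928), which is found in the replicative loader alone, stood at 147, 141 and 142 CPM in DMSO, at 161, 166, 163 and 172 CPM with GTEA1 and at 145, 152, 152 and 145 CPM with GTEA7. It rose by 1.15-fold with GTEA1 (log2 fold change 0.21 ± 0.04, adjusted p = 2.5e-06), a call that was lost with library size as the only scaling (0.05, adjusted p = 0.26). That scaling also moves the median log2 fold change of all tested genes, from -0.01 to -0.17. A change of scaling shifts all genes nearly alike, so whether RFC1 rose depends on the scaling. The ratio of RFC1 to RFC3 CPM was 3.31 to 3.48 in DMSO, 7.97 to 9.79 in GTEA1 and 2.95 to 3.12 in GTEA7. On the opposite strand, WSB2 shares 5.72% of the exon bases of RFC5.

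RPA coats the single-stranded DNA of the fork, FEN1 trims the flaps of Okazaki fragments and LIG1 seals them. FEN1 (ENSG00000168496) stood at 84.5, 91.6 and 92.4 CPM in DMSO, at 17.03, 14.1, 13.2 and 11.4 CPM with GTEA1 and at 95.5, 101, 97.3 and 81.6 CPM with GTEA7. LIG1 (ENSG00000105486) stood at 47.6, 53.7 and 54.2 CPM in DMSO, at 21.9, 20.5, 21.6 and 19.5 CPM with GTEA1 and at 49.2, 46.6, 48.9 and 44.99 CPM with GTEA7. FEN1 fell by 6.47-fold with GTEA1 (log2 fold change -2.69 ± 0.10, adjusted p = 6.1e-11), the third largest fall of the 51 genes, and LIG1 by 2.48-fold (-1.31 ± 0.06, adjusted p = 1.1e-25). TMEM258, on the opposite strand, shares 6.70% of the exon bases of FEN1, and it had 26.2% as many counts. The subunits of RPA fell by less. RPA1 (ENSG00000132383), the large subunit, stood at 189, 199.9 and 201 CPM in DMSO, at 132, 126, 119.5 and 120.2 CPM with GTEA1 and at 188, 198, 197 and 187 CPM with GTEA7. RPA2 (ENSG00000117748), the middle subunit, stood at 59.3, 63.05 and 63.7 CPM in DMSO, at 50.01, 47.5, 46.8 and 45.7 CPM with GTEA1 and at 68.6, 71.6, 73.1 and 61.9 CPM with GTEA7. RPA3 (ENSG00000106399), the small subunit, stood at 22.7, 24.1 and 23.2 CPM in DMSO, at 12.2, 9.84, 12.5 and 10.9 CPM with GTEA1 and at 21.6, 23.1, 23.7 and 22.8 CPM with GTEA7. The falls were 1.58-fold, 1.31-fold and 2.05-fold in that order. GTEA1 and DMSO did not overlap in any of them, beside 68.7% of all tested genes.

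Deoxynucleotides come from ribonucleotide reductase, and thymidylate from TYMS or, by salvage, from TK1. RRM2 (ENSG00000171848), the small subunit of ribonucleotide reductase that limits its activity in S phase, stood at 252, 259 and 253 CPM in DMSO, at 59.8, 47.5, 53.2 and 38.2 CPM with GTEA1 and at 269, 269.8, 282 and 246 CPM with GTEA7. RRM1 (ENSG00000167325), the large subunit, stood at 130.0, 141 and 135 CPM in DMSO, at 58.7, 58.3, 57.8 and 53.7 CPM with GTEA1 and at 136, 135, 141 and 119 CPM with GTEA7. RRM2 fell by 5.15-fold with GTEA1 (log2 fold change -2.36 ± 0.11, adjusted p = 5.9e-08) and RRM1 by 2.37-fold (-1.25 ± 0.05, adjusted p = 4.4e-27). The CPM ratio of RRM1 to RRM2 was 0.517 to 0.543 in DMSO, 0.982 to 1.41 in GTEA1 and 0.484 to 0.505 in GTEA7. TK1 (ENSG00000167900), the cytosolic thymidine kinase, stood at 108, 125 and 123 CPM in DMSO, at 22.8, 18.3, 21.6 and 15.2 CPM with GTEA1 and at 105, 97.5, 98.3 and 87.4 CPM with GTEA7. TYMS (ENSG00000176890), thymidylate synthase, stood at 22.4, 23.2 and 22.6 CPM in DMSO, at 5.75, 4.63, 5.17 and 4.17 CPM with GTEA1 and at 23.3, 23.2, 25.1 and 22.5 CPM with GTEA7. They fell by 6.12-fold (-2.61 ± 0.12, adjusted p = 1.1e-08) and 4.62-fold (-2.21 ± 0.09, adjusted p = 3.1e-27). The antisense gene ENOSF1 shares 39.1% of the exon bases of TYMS, and it had 10692 counts against 3045, so the level of TYMS is uncertain where the counting did not use strand. The summed CPM of the 4 genes with GTEA1 was 24.7% of that in DMSO.

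The last 5 genes are grouped as fork protection and S-phase factors. FAM111B (ENSG00000189057), which encodes a trypsin-like protease, had the largest fall of all 51 genes and stood at 24.7, 28.2 and 26.3 CPM in DMSO, at 1.38, 1.32, 0.982 and 1.03 CPM with GTEA1 and at 27.4, 26.1, 24.9 and 23.97 CPM with GTEA7. Its level with GTEA1 was 4.44% of that in DMSO, a fall of 22.5-fold (log2 fold change -4.49 ± 0.12, adjusted p = 2.7e-35). CLSPN (ENSG00000092853), the checkpoint adaptor claspin, stood at 60.7, 55.7 and 62.3 CPM in DMSO, at 12.4, 11.5, 11.5 and 10.5 CPM with GTEA1 and at 57.8, 55.4, 59.3 and 51.5 CPM with GTEA7. UHRF1 (ENSG00000276043), which reads hemimethylated DNA behind the fork and recruits the maintenance methyltransferase, stood at 85.9, 92.1 and 92.5 CPM in DMSO, at 29.2, 27.99, 27.04 and 26.1 CPM with GTEA1 and at 90.6, 84.7, 92.2 and 84.2 CPM with GTEA7. These genes fell by 5.20-fold (-2.38 ± 0.07, adjusted p = 9.6e-35) and 3.27-fold (-1.71 ± 0.05, adjusted p = 1.3e-33). TIMELESS (ENSG00000111602), of the fork protection complex, stood at 94.9, 99.9 and 102 CPM in DMSO, at 50.01, 47.8, 52.3 and 46.2 CPM with GTEA1 and at 101, 97.3, 102 and 90.1 CPM with GTEA7. SLBP (ENSG00000163950), which binds the stem-loop of replication-dependent histone mRNA, stood at 110.2, 111 and 110.3 CPM in DMSO, at 70.3, 62.7, 66.6 and 59.6 CPM with GTEA1 and at 121, 121, 122 and 115 CPM with GTEA7. Their falls of 2.01-fold and 1.71-fold were smaller, and again no GTEA1 library reached the DMSO range.

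**Figure D3:**
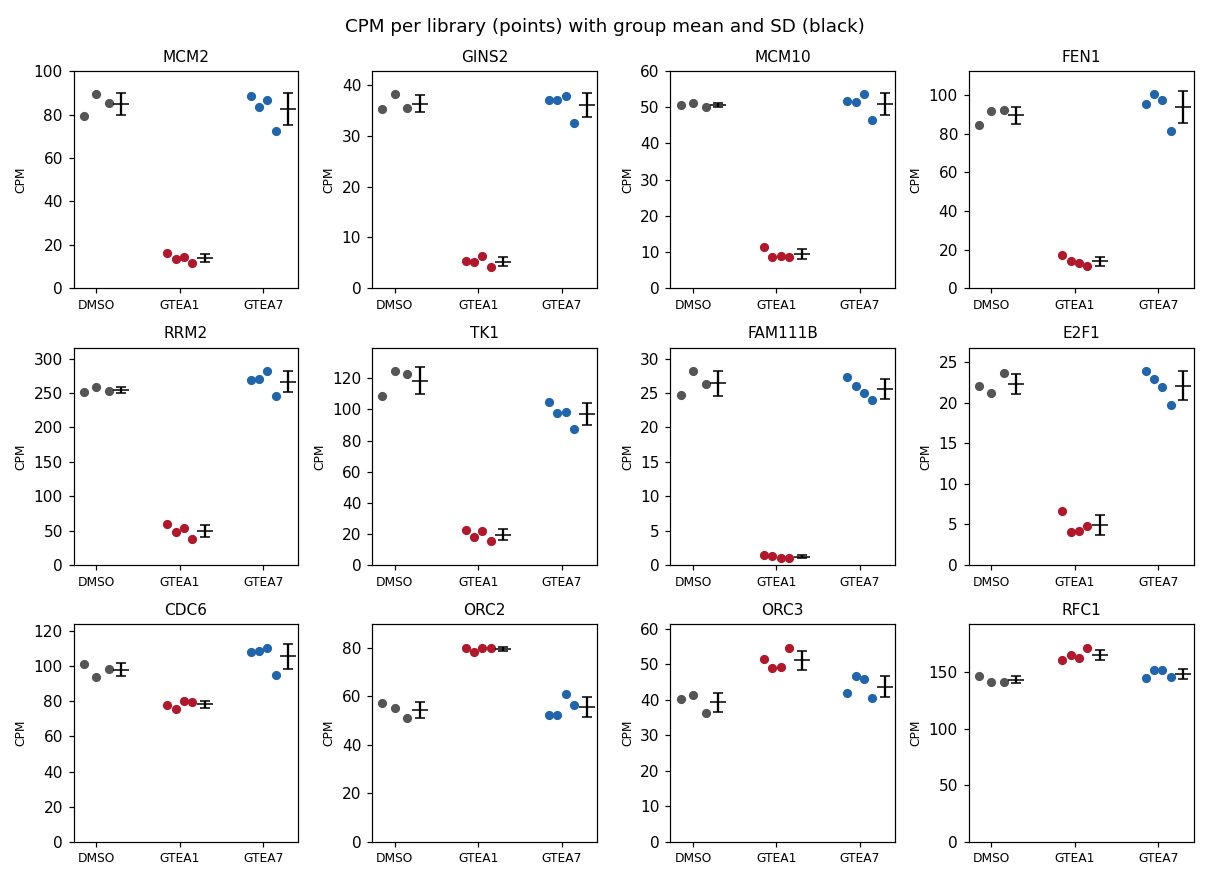
CPM (vertical axis, from 0) of 12 replication genes in each library (points) of the DMSO, GTEA1 and GTEA7 groups (horizontal axis), with the group mean and SD in black (n = 3, 4 and 4). MCM2, GINS2, MCM10, FEN1, RRM2, TK1, FAM111B and E2F1 fell with GTEA1 to between 4.44% and 22.1% of their DMSO mean, CDC6 fell to 80.1%, and ORC2, ORC3 and RFC1 lay above DMSO.

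GTEA7 against DMSO asked what the other extract did to the same genes. Of all tested genes 22.5% passed the test, 10.4% lower and 12% higher, while 7 of the 51 replication genes did (13.7%). Scaled by library size alone, 6 of the 51 were lower and 1 higher, and over all tested genes 2954 were lower and 1255 higher, against 1877 and 2159. At an unadjusted p under 0.05 there were 15 of the 51, beside 33.5% of all tested genes. The median log2 fold change of the 51 genes was 0.01, beside -0.01 over all tested genes, and the largest single change was that of TK1, -0.29. Approximate 95% intervals of the changes, from the SE and a normal distribution, ran from -0.56 (E2F2) to 0.35 (POLA2). Of these, 47 of 51 lay wholly within 0.3 of 0 on the log2 scale. With few libraries such intervals are somewhat too narrow. The GTEA7 and DMSO libraries did not overlap for 9 of the 51 genes, beside 30.5% of all tested genes.

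The 2 genes that were lower with GTEA7 were both catalytic subunits of polymerases. POLE was at 157 ± 9.61 (SD, n = 4) CPM with GTEA7 and 183 ± 3.54 (SD, n = 3) in DMSO, a log2 fold change of -0.22 ± 0.04 (adjusted p = 2.1e-05). POLD1 was at 30.4 ± 0.702 (SD, n = 4) and 34.4 ± 2.70 (SD, n = 3) CPM (-0.17 ± 0.06, adjusted p = 0.021). Every GTEA7 library lay under every DMSO library for both. TK1 did the same, at 96.9 ± 7.07 (SD, n = 4) against 119 ± 8.93 (SD, n = 3) CPM, but stayed just outside the threshold (-0.29 ± 0.09, adjusted p = 0.052).

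The clamp loader subunit RFC3 had the largest rise with GTEA7, from 41.95 ± 0.92 (SD, n = 3) to 49.1 ± 1.77 (SD, n = 4) CPM (0.23 ± 0.05, adjusted p = 0.00053), with no overlap. ORC6 rose from 32.9 ± 2.62 (SD, n = 3) to 36.9 ± 1.32 (SD, n = 4) CPM (0.17 ± 0.06, adjusted p = 0.028) and ORC3 from 39.2 ± 2.69 (SD, n = 3) to 43.7 ± 3.07 (SD, n = 4) CPM (0.15 ± 0.06, adjusted p = 0.038). RPA2 rose from 62.00 ± 2.39 (SD, n = 3) to 68.8 ± 4.94 (SD, n = 4) CPM (0.15 ± 0.05, adjusted p = 0.015) and SLBP from 110.5 ± 0.352 (SD, n = 3) to 119.9 ± 3.36 (SD, n = 4) CPM (0.12 ± 0.04, adjusted p = 0.028). The libraries overlapped with DMSO for ORC3, ORC6 and RPA2 and not for SLBP. ORC3 was higher with both extracts, and those comparisons share the DMSO libraries. Most of these small calls were not kept in every fit that left out a library. Leaving out each in turn gave 1 to 4 lower and 1 to 9 higher genes, and only POLE and RFC3 passed in every such fit. Over all tested genes these fits gave 1373 to 2009 lower and 1600 to 2461 higher. A lost call did not always mean a smaller change: where SLBP lost its call, its log2 fold change stayed at 0.11 to 0.12. The number lower was 4 without DMSO replicate 1, and 1 without DMSO replicate 3 or GTEA7 replicate 2. The number higher was 2 without DMSO replicate 1, 3 without DMSO replicate 2, DMSO replicate 3 or GTEA7 replicate 1, and 1 without GTEA7 replicate 2 or 3. It was 8 without GTEA1 replicate 1 or 4 and 9 without GTEA7 replicate 4.

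**Figure D4:**
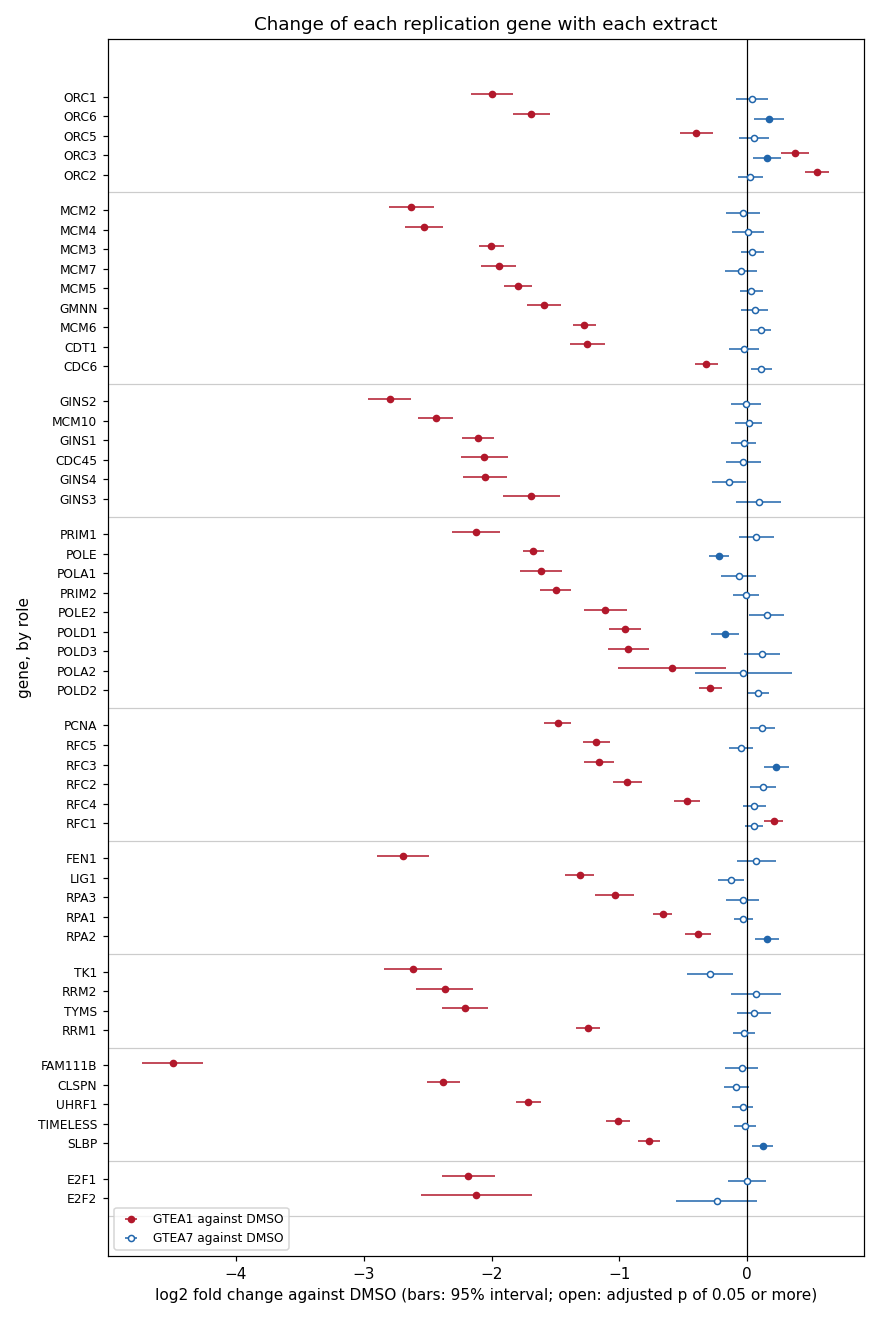
Log2 fold change against DMSO (horizontal axis, with approximate 95% intervals as bars) of each of the 51 replication genes (vertical axis, by role) with GTEA1 (red) and GTEA7 (blue). Filled points passed the test at an adjusted p under 0.05 and open points did not. The red points lie left of 0 for 48 genes and reach -4.49 in FAM111B, and the blue points all lie between -0.29 and 0.23.

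The direct comparison of the extracts tested whether they differed. With GTEA7, 48 of the 51 genes were higher than with GTEA1, beside 36.2% of all tested genes, and 3 were lower, beside 36.4%. In all, 72.7% of tested genes passed in either direction. The median log2 fold change of GTEA7 against GTEA1 was 1.54 over the 51 genes and 0.00 over all tested genes. FAM111B differed most, 4.45 ± 0.12 (adjusted p = 7e-36), then GINS2, 2.79 ± 0.08 (adjusted p = 1.1e-33), and FEN1, 2.77 ± 0.10 (adjusted p = 2.4e-11). The genes lower with GTEA7 were ORC2, -0.52 ± 0.04 (adjusted p = 6.1e-15), ORC3, -0.22 ± 0.05 (adjusted p = 0.00013), and RFC1, -0.15 ± 0.03 (adjusted p = 7.9e-05). The RFC1 call was lost with library size as the only scaling (-0.05, adjusted p = 0.24). The extracts' libraries did not overlap for 50 of the 51 genes, beside 65.3% of all tested genes. POLA2 was the exception, and its call (0.55 ± 0.20, adjusted p = 0.013) was lost without GTEA7 replicate 3 (0.29, adjusted p = 0.19).

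Within each group the replication genes tended to be high or low in the same library. Among the GTEA1 libraries, replicate 1 was the highest for 37 of the 51 genes (72.5%) and replicate 4 the lowest for 28 (54.9%), while over all tested genes these libraries were highest and lowest for 28.2% and 25.3%. In GTEA7, replicate 4 was the lowest for 40 of the 51 genes (78.4%, beside 27.2% of all tested genes) and replicate 3 the highest for 29 (56.9%, beside 24.8%). In DMSO, replicate 1 was the lowest for 31 (60.8%, beside 34.7%). The median log2 ratio of the 51 genes to their DMSO means was -1.34, -1.63, -1.48 and -1.69 across replicates 1 to 4 of GTEA1, and 0.04, 0.03, 0.08 and -0.10 across those of GTEA7. The spread between GTEA1 libraries was thus small beside the distance to DMSO, and that between GTEA7 libraries was larger than the median change with GTEA7. What sets these libraries apart was not tested.

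Beyond the 51, 69 other genes of replication and its control were listed by function, also with earlier results known. Of these, 67 had enough counts to be tested. CHTF8 and RNASEH2A did not, with 74 and 89 counts over all libraries. With GTEA1, 49 of the 67 were lower, beside 36.2% of all tested genes, and 11 higher, beside 35.6%, with a median log2 fold change of -0.65. The remaining 7 did not pass. With GTEA7, 7 were lower, beside 10.4% of all tested genes, and 9 higher, beside 12%, with a median of 0.02. The remaining 51 did not pass. The 7 lower with GTEA7 changed by -0.46 to -0.16 on the log2 scale. Among them were RECQL4 (-0.28 ± 0.05, adjusted p = 4.7e-05) and E2F5 (-0.28 ± 0.08, adjusted p = 0.0061). Without DMSO replicate 3 these 7 became 4, and E2F5 was among those lost (adjusted p = 0.053).

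The 9 higher with GTEA7 changed by 0.10 to 0.35 on the log2 scale. They were DBF4, the activating subunit of the kinase CDC7 (0.31 ± 0.05, adjusted p = 2.6e-06), MCMBP, which binds MCM proteins (0.21 ± 0.04, adjusted p = 1.8e-05), and POLE3, a small subunit of polymerase epsilon (0.22 ± 0.04, adjusted p = 0.00011). TOP1 (0.25 ± 0.04, adjusted p = 3.6e-07), the nucleotide pyrophosphatase DCTPP1 (0.35 ± 0.08, adjusted p = 0.0031), CMPK1 (0.29 ± 0.04, adjusted p = 6.6e-08) and the repressor E2F6 (0.30 ± 0.05, adjusted p = 3.8e-05) were also higher. The other two were RNASEH2B, a subunit of ribonuclease H2 (0.17 ± 0.06, adjusted p = 0.043), and SUPT16H, a subunit of the histone chaperone FACT (0.10 ± 0.03, adjusted p = 0.028). Both lost their calls with library size as the only scaling, at adjusted p = 0.18 and 0.32, and without DMSO replicate 1 (0.28 and 0.17), DMSO replicate 3 (0.11 and 0.066) or GTEA7 replicate 3 (0.16 and 0.093). The RNASEH2B call was also lost without GTEA7 replicate 1 (adjusted p = 0.13) and with the Wald test of DESeq2 (0.075), and the SUPT16H call without GTEA7 replicate 2 (0.096).

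Among 26 other initiation and fork genes, 19 were lower and 3 higher with GTEA1, beside 36.2% and 35.6% of all tested genes. The largest falls were in DSCC1, a subunit of an alternative clamp loader (-2.21 ± 0.08, adjusted p = 1.3e-29), the helicase RECQL4 (-2.13 ± 0.06, adjusted p = 6.7e-33) and TICRR, which helps load CDC45 (-1.95 ± 0.07, adjusted p = 5.3e-31). POLD4, the smallest subunit of polymerase delta, rose. It stood at 1.47, 1.46 and 1.17 CPM in DMSO, at 6.98, 6.83, 7.00 and 7.26 CPM with GTEA1 and at 1.61, 1.54, 1.59 and 1.71 CPM with GTEA7. The 4 subunits of polymerase delta thus differed in direction, POLD4 at a log2 fold change of 2.34 ± 0.16 (adjusted p = 1.7e-18) and POLD1, POLD2 and POLD3 at -0.96, -0.29 and -0.93. Topoisomerase TOP1 (1.01 ± 0.04, adjusted p = 6.7e-30) and the fork factor DONSON (0.37 ± 0.06, adjusted p = 1.2e-07) were higher too.

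A list of 10 chromatin genes of the fork, histone chaperone genes together with the maintenance DNA methyltransferase DNMT1 (-0.99 ± 0.03, adjusted p = 1.6e-30), was lower with GTEA1 in all 10, beside 36.2% of all tested genes. ASF1B stood at 18.8, 17.7 and 22.8 CPM in DMSO, at 3.30, 2.20, 2.36 and 3.02 CPM with GTEA1 and at 19.1, 18.1, 17.04 and 16.1 CPM with GTEA7, a log2 fold change of -2.85 ± 0.12 with GTEA1 (adjusted p = 1e-26). CHAF1A and CHAF1B, which encode subunits of chromatin assembly factor CAF-1, changed by -2.17 ± 0.06 (adjusted p = 1.2e-33) and -1.39 ± 0.06 (adjusted p = 9.8e-26).

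Of 10 other deoxynucleotide genes, 6 were lower and 3 higher with GTEA1, beside 36.2% and 35.6% of all tested genes. The dNTP hydrolase SAMHD1 (-1.41 ± 0.06, adjusted p = 9.1e-28), the dUTPase DUT (-1.11 ± 0.06, adjusted p = 1.1e-21) and the deoxycytidine kinase DCK (-0.68 ± 0.07, adjusted p = 1.2e-11) fell. RRM2B, the small subunit of ribonucleotide reductase that p53 induces, stood at 133, 126 and 123 CPM in DMSO, at 173, 167, 156 and 169 CPM with GTEA1 and at 131, 134, 133 and 132 CPM with GTEA7, and so rose (0.39 ± 0.04, adjusted p = 8.6e-13) where RRM2 fell. TK2, the mitochondrial thymidine kinase, also rose (0.55 ± 0.08, adjusted p = 1.4e-08) where TK1 fell, as did the kinase CMPK1 (0.53 ± 0.04, adjusted p = 4.6e-17).

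Of 21 other genes of E2F, RB and G1/S control, 14 were lower and 5 higher with GTEA1, beside 36.2% and 35.6% of tested genes. CDKN1A, which encodes the CDK inhibitor p21, stood at 82.9, 89.3 and 85.7 CPM in DMSO, at 351, 350.1, 349 and 377 CPM with GTEA1 and at 87.7, 87.7, 84.2 and 82.6 CPM with GTEA7. It rose by 4.15-fold with GTEA1 (log2 fold change 2.05 ± 0.04, adjusted p = 1.5e-41) and lay within the DMSO range with GTEA7 in all but 1 library. Another CDK inhibitor gene, CDKN1B, rose by 1.39-fold with GTEA1 (log2 fold change 0.48 ± 0.05, adjusted p = 2.3e-11). The cyclin E genes parted. CCNE2 fell by 7.45-fold (log2 fold change -2.90 ± 0.13, adjusted p = 1.1e-25), from 13.8 ± 1.44 (SD, n = 3) to 1.85 ± 0.0826 (SD, n = 4) CPM. CCNE1 rose by 1.35-fold (log2 fold change 0.43 ± 0.06, adjusted p = 2.7e-08), from 26.4 ± 2.69 (SD, n = 3) to 35.7 ± 1.36 (SD, n = 4) CPM. The E2F family parted as well. E2F8, an atypical repressor, fell with E2F1 and E2F2 (-1.45 ± 0.11, adjusted p = 2.2e-17), and so did E2F7 (-0.57 ± 0.06, adjusted p = 9e-12) and E2F3 (-0.33 ± 0.04, adjusted p = 8.6e-10). E2F5, which mainly represses with pocket proteins, was higher (0.48 ± 0.07, adjusted p = 9.8e-08). E2F4, of the same kind, was slightly higher (0.13 ± 0.04, adjusted p = 0.0054) but not with library size as the only scaling (-0.03, adjusted p = 0.61), and E2F6 stood at -0.02 ± 0.06 (adjusted p = 0.72). The phosphatase CDC25A, which activates CDK2, changed by -1.89 ± 0.09 (adjusted p = 5.2e-25).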

How the data were processed

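Polyadenylated RNA of 11 HCT116 samples was sequenced. The authors deposited raw read counts per gene in a single table, with 1 column per library, and every column was used. Per the submitters' processing notes, the tools were DESeq 1.10.1, HTSeq 0.5.4, SAMtools 0.1.18, STAR, GATK and Picard, with no role stated. What build, annotation and strand option lay behind the counts was not given in the sources used here. Counts of genes that overlap others on either strand are therefore uncertain. Features outside Ensembl held 0.727% of all counts.

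Libraries were grouped by their labels. Genes were kept with filterByExpr of edgeR 4.0.16 (R 4.3.3), scaled by TMM and fitted in 1 quasi-likelihood model of all 11 libraries, with Benjamini-Hochberg adjustment over the 17963 tested genes. The standard error of a log2 fold change follows the ± sign. The fit was also run on simulated counts in which few genes changed, up and down alike. With GTEA1 71.8% of tested genes passed, so that run cannot check the scaling under so broad a change. Libraries of 1 group differed by more than sampling noise, so none was treated as a second deposit of the same library, which does not show that their cultures were separate.

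The members and the lists of other genes were chosen with earlier results of these data known. Every member is named, under a rule that covers those called higher in any comparison or among the 3 largest changes of a role. Of the other lists, genes called higher against DMSO and the 3 largest falls of each with GTEA1 were named, and 1 gene of those lists is not reported here. Symbols came from a table of gene names, exon lengths and overlaps from GENCODE v29, and promoter sequences from RefSeq (GRCh38.p14). Same-numbered libraries did not deviate together (correlations from -0.055 to 0.0262 over 10 pairs), so the numbers were not treated as pairs. The alternatives were other scalings, other filters on low counts, DESeq2 1.42.0, limma-voom (limma 3.58.1), the compared groups alone, a replicate block, and leaving out each library. Figures were drawn with matplotlib 3.10.9.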

Additional observations from a re-analysis of the deposited data

Results flagged for a closer look

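Each group of 4 libraries was searched, gene by gene, for a library whose gap to its neighbour took up more of the group's range than Dixon's 95% critical value. This singled out 10 of 102 groups (9.8%). Only the 51 genes were searched, and they share the same libraries and tended to move together in them. The share therefore cannot be set against a chance rate. No explanation was tested for any of the 10.

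In GTEA1, replicate 1 stood high for MCM10, at 11.4 CPM with the others at 8.67 to 8.77, and for POLA1, at 24.8 CPM with the others at 18.1 to 18.8. Replicate 3 stood high for ORC1, at 9.82 CPM beside 6.98 to 7.42, and for RFC4, at 36.5 CPM beside 34.1 to 34.5. Replicate 2 was low for ORC2, at 78.1 CPM with the others all at 80.0, a small gap that the closeness of the other libraries made stand out. All of these values stay outside the DMSO range of the same gene.

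In GTEA7, the library singled out was replicate 4 each time, and it was the lowest. It stood at 28.3 CPM for ORC5 (others 32.6 to 33.3), 95.0 CPM for CDC6 (108 to 111), 229 CPM for MCM4 (253 to 255), 32.6 CPM for GINS2 (37.1 to 37.9) and 115 CPM for SLBP (121 to 122).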

How the results depend on the processing

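Against DMSO, GTEA1 lowered 48 of the 51 genes in every alternative that kept all libraries and 47 to 48 with each library left out. No alternative reversed the direction of any of the 51 that had passed; among the other replication genes E2F4 turned with library size as the only scaling (0.13 to -0.03). Library size as the only scaling moved the median log2 fold change of the 51 genes from -1.59 to -1.75 for GTEA1 against DMSO and from 1.54 to 1.65 for GTEA7 against GTEA1. Leaving out libraries gave medians from -1.66 to -1.54 in the first and from 1.50 to 1.65 in the second.

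The small changes with GTEA7 against DMSO depended on the settings, and the cause was not tested. The reported counts were 2 lower and 5 higher. Library size only gave 6 lower and 1 higher (all tested genes: 2954 lower, 1255 higher), no low-count filter 8 higher, the DESeq2 Wald test 1 lower and 3 higher, and a fit of the compared groups alone 4 lower and 8 higher. The replicate block gave 10 higher. Over all tested genes, the counts in these alternatives also ranged widely, from 1286 to 2954 lower and from 1255 to 2476 higher. With each library left out there were 1 to 4 lower and 1 to 9 higher, and 4 to 7 lower among the other replication genes. Over all tested genes it was 1373 to 2009 lower and 1600 to 2461 higher. TK1 passed with the block (-0.23, adjusted p = 0.0069) and in several other alternatives. For scarce genes such as POLA2 and E2F2, few counts limit the precision.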
